A study of Homo sapiens with 16 samples.

Results

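The expression of 9 genes of the ATP-binding cassette (ABC) family was followed in a pair of related human melanoma lines during exposure to CCG-222740. The genes were taken by name as exporters of drugs, of drug conjugates or of lipids: ABCB1, ABCG2, ABCC1, ABCC2, ABCC3, ABCC4, ABCC5, ABCB5 and ABCA1. They are 9 of the 63677 gene IDs counted in every library, and each symbol matched 1 ID. UACC62P is the parental line. UACC62R is its resistant derivative, selected over 2 months with vemurafenib (2 uM), which inhibits mutant BRAF, and kept in that drug. Each line gave 4 groups: untreated (0 h), or in 10 uM CCG-222740 for 2, 6 or 24 h, with 2 libraries a group and 16 in all. CCG-222740 is known as an inhibitor of gene activation by serum response factor (SRF) and its coactivators MRTFA and MRTFB. Vemurafenib in the medium is stated for untreated UACC62R and is not given for its treated libraries in the sources used here. If the treated cells had none, its loss cannot be told apart from CCG-222740 in UACC62R comparisons with 0 h. Between the untreated lines, vemurafenib in the medium cannot be told apart from the line. No vehicle library was used here, and whether UACC62R is 1 clone is not given. Nothing in the labels says that the replicates were separate cultures, so a p-value here measures the spread among libraries, which may be technical. The untreated libraries are labelled in other words than the treated ones, so a batch of their own cannot be told apart from treatment in comparisons with 0 h, whereas 24 h against 6 h sets treated libraries against each other.

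ABC transporters are membrane proteins that use ATP to move substrates across a membrane, most of them out of the cell. ABCB1 (P-glycoprotein, ENSG00000085563, chromosome 7) and ABCG2 (breast cancer resistance protein, ENSG00000118777, chromosome 4) export a wide range of drugs, and both are known to carry vemurafenib. The C subfamily is also called the multidrug resistance proteins. ABCC1 (ENSG00000103222, chromosome 16) exports glutathione conjugates and leukotriene C4. ABCC2 (ENSG00000023839, chromosome 10) exports conjugates into bile and urine, and ABCC3 (ENSG00000108846, chromosome 17) returns glucuronides and bile salts to blood. ABCC4 (ENSG00000125257, chromosome 13) and ABCC5 (ENSG00000114770, chromosome 3) export cyclic nucleotides among other organic anions. ABCB5 (ENSG00000004846, chromosome 7) is known in melanoma as a marker of a drug-tolerant subset of cells. ABCA1 (ENSG00000165029, chromosome 9) passes cholesterol and phospholipid to apolipoprotein A-I, and its transcription is driven by the liver X receptors (LXR), which sense oxysterols.

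Read counts per gene do not show which promoter was used, and a part of promoter sequence in the changes was not tested. The sequences before the transcription start are shown for the 4 genes that rose together in UACC62R at 24 h, and for ABCA1, because of its known LXR repeat. They are the 250 bases up to the start from RefSeq (GRCh38.p14; the count files use hg19), 5′ to 3′ on the gene's strand, and 6 of the 9 genes matched an entry. ABCB1 has 2 such windows and ABCG2 has 5, of which the most downstream is printed for each. Capitals mark matches on either strand to 5 motifs: the antioxidant response element core (TGACNNNGC or TGAGNNNGC), the xenobiotic response element core (GCGTG), the E-box bound by MITF (CATGTG or CACGTG), the metal response element core (TGCACNC or TGCGCNC) and the LXR direct repeat (AGGTCA 2 times with 4 bases between, up to 2 mismatches).
ABCB1, chr7:87600885-87601134, minus strand: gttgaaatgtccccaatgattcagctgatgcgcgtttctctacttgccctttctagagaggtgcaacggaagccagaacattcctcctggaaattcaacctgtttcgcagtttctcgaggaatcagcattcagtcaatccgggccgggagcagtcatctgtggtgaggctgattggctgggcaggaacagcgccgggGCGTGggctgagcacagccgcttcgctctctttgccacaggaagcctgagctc
ABCC2, chr10:99782390-99782639, plus strand: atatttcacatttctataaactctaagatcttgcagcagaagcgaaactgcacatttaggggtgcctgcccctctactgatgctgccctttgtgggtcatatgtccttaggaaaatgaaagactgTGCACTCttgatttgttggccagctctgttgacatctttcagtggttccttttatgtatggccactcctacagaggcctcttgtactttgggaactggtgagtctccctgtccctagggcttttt
ABCC4, chr13:95301452-95301701, minus strand: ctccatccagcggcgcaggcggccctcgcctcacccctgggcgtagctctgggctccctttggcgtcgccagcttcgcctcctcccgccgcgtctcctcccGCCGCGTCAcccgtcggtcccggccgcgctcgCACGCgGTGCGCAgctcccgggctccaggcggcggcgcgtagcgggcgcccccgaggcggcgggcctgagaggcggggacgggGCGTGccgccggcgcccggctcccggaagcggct
ABCG2, chr4:88158640-88158889, minus strand: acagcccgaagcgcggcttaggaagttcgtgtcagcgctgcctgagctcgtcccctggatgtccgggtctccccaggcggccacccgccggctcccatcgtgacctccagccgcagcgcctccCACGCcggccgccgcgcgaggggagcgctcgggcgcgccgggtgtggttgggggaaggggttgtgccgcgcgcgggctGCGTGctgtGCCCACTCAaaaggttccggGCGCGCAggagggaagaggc
ABCA1, chr9:104928156-104928405, minus strand: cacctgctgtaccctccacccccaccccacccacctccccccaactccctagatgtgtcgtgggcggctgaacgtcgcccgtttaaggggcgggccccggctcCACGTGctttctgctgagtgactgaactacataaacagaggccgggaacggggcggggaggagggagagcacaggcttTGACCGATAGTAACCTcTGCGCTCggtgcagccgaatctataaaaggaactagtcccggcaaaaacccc
The windows of the 4 genes that rose have no motif that all of them share. ABCB1 has GCGTG beginning 53 bases before the start, and ABCC2 has TGCACTC beginning 125 bases before it. ABCC4 holds an antioxidant core (TGACGCGGC, 149 bases before the start), GCGTG at 117 and 34 bases and TGCGCAC at 111 bases. In the printed window of ABCG2 the antioxidant core is TGAGTGGGC at 40 bases, with GCGTG at 127 and 49 bases and TGCGCGC at 20 bases. Its other windows hold no antioxidant core. CACGTG lies in some of them, at 171 and 121 bases, which is the same site because these windows overlap. ABCA1 has CACGTG at 147 bases, TGCGCTC at 52 bases and the LXR repeat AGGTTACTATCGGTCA at 69 bases. Of 35116 RefSeq windows of this length, 23.9% hold the antioxidant core, 32.2% the xenobiotic core, 15.2% the E-box, 24.8% the metal core and 2.03% the LXR repeat. A CArG box, the element SRF binds, was found in 1.16% of the windows and in none of the 11 windows of these genes. These matches describe letters and not bound sites.

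The libraries held 25.9 to 33.3 M reads in genes (median 29.9 M). The UACC62P library labelled 2 h replicate 1 did not resemble its line. Over 20280 genes its log2 CPM correlated at 0.993 with the mean of the 8 UACC62R libraries and at 0.926 with that of the 7 other UACC62P libraries. It had 18.1 CPM of SOX10, which drives the melanocyte lineage (741 to 919 CPM in the other UACC62P libraries, 19.97 to 29.9 CPM in UACC62R). The library was left out, so 15 libraries enter the tests, and UACC62P at 2 h has n = 1 and is assumed to vary like the other groups. Both lines are labelled melanoma, yet the 7 melanocyte lineage markers summed to 1137 to 1451 CPM in UACC62P and to 70.0 to 81.3 CPM in UACC62R, where TYR did not exceed 0.231 CPM and MLANA 0.495 CPM. MITF, also on the list, kept 41.01 to 53.55 CPM in UACC62R (131.9 to 247.7 CPM in UACC62P). TYRP1 was low and overlapped between the lines, at 0.2727 to 1.189 CPM in UACC62P and 0.3845 to 0.8901 CPM in UACC62R. Markers of other tissues that use these transporters were near 0: the epithelial list summed to at most 0.816 CPM, the hepatocyte list to at most 0.195 CPM, the endothelial list to at most 1.66 CPM and the blood list to at most 1.25 CPM. CDH1, PECAM1 and SLC22A6 were at 0 in all 16 libraries. The kidney tubule list reached 1.70 to 3.28 CPM in UACC62P, all of it LRP2, and at most 0.0659 CPM in UACC62R.

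Values are counts per 1 M reads in genes (CPM), scaled by TMM, the trimmed mean that edgeR uses to make libraries comparable. A gene was called when the Benjamini-Hochberg adjusted p of edgeR's quasi-likelihood F test was under 0.05 over all 20280 genes tested. All 9 transporters passed the filter on low counts. Log2 fold changes are given ± their standard error, for 2 libraries against 2 unless stated, and group levels as mean ± SD (n = 2).

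Per kilobase of exon, ABCC1 was the most abundant of the 9 transporters in both untreated lines, and the order below it differed between the lines. In untreated UACC62P, ABCC1 stood at 14.4 ± 1.73 CPM per kb and ABCC5 at 11.5 ± 0.42. ABCC4 followed at 4.5 ± 0.18, ABCB5 at 1.31 ± 0.12 and ABCC2 at 0.648 ± 0.079. ABCB1 (0.297 ± 0.043) and ABCG2 (0.248 ± 0.057) overlapped, and so did ABCA1 (0.0233 ± 0.0015) and ABCC3 (0.0166 ± 0.0083), at the bottom. In untreated UACC62R, ABCC1 (18.9 ± 0.84 CPM per kb) and ABCC5 (8.06 ± 0.11) were again at the top. ABCC2 (5.61 ± 0.03) and ABCG2 (3.98 ± 0.79) came next and lay above ABCC4 (2.34 ± 0.20). ABCC3 (0.81 ± 0.11), ABCB1 (0.387 ± 0.033), ABCA1 (0.0963 ± 0.0035) and ABCB5 (0.0178 ± 0.025) closed the order, and no neighbours overlapped. ABCC2 and ABCG2 made up 13.9% and 9.89% of the summed level in UACC62R, against 1.97% and 0.752% in UACC62P. ABCB5 held the fourth place in UACC62P and the last in UACC62R.

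**Figure D1:**
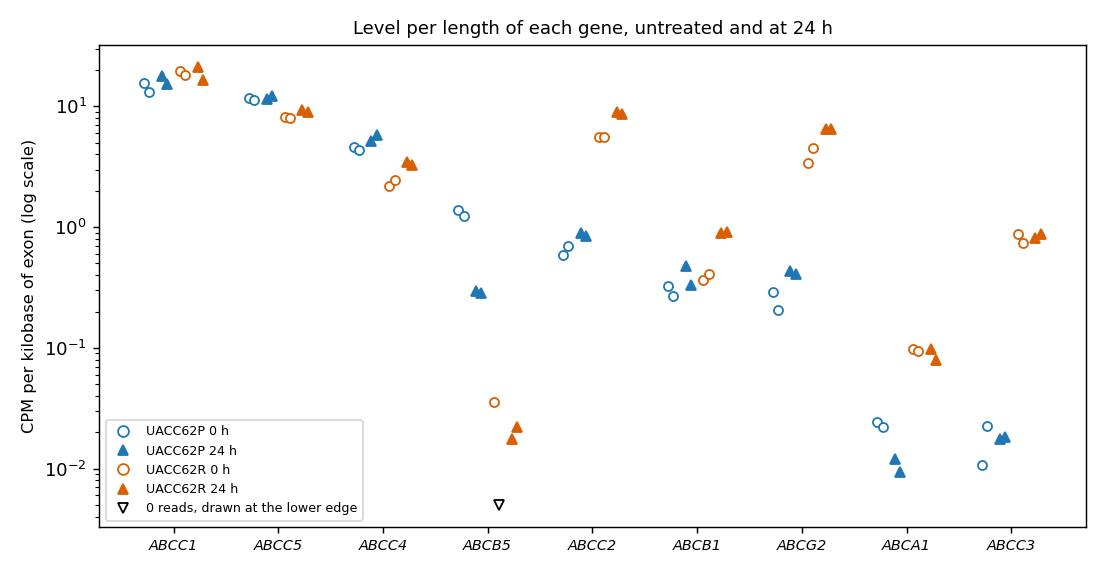
Level per length of each transporter gene, as TMM-scaled CPM per kilobase of exon on a log axis, with 1 point per library in untreated cells (open circles) and at 24 h (filled triangles) of UACC62P (blue) and UACC62R (orange); the black open triangle stands for the library with 0 ABCB5 reads. ABCC1 is at the top in every group, while ABCC2, ABCG2 and ABCC3 are higher and ABCB5 lower in UACC62R.

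The first comparison asked how the transporters of the resistant line differ from those of its parent. In untreated cells 8 of the 9 were called, against 53.9% of all genes tested, so a call by itself sets these genes little apart. ABCC3, ABCG2, ABCC2, ABCA1 and ABCC1 were higher in UACC62R (27.8% of all genes were), and ABCB5, ABCC4 and ABCC5 were lower (26.1% of all genes). The sizes ran from 1.32-fold for ABCC1 to 47.73-fold for ABCC3 and 73.55-fold for ABCB5, with a median log2 fold change of 0.40 over the 9 and 0.0216 over all genes. In bulk RNA, fewer cells of a type and less RNA per cell cannot be told apart.

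Of the broad drug exporters, ABCG2 differed between the lines and ABCB1 did not pass the test in untreated cells. ABCG2 stood at 1.45 and 1.04 CPM in the 2 untreated UACC62P libraries and at 17.3 and 22.9 CPM in those of UACC62R. That is 15.99-fold higher in UACC62R (log2 4.0 ± 0.19, adjusted p = 3.01e-10). The ranges of the lines did not overlap at any time: 1.04 to 2.18 CPM over the 7 UACC62P libraries (median 1.78) and 17.3 to 33.1 CPM over the 8 UACC62R libraries (median 21.5). ABCB1 stood at 1.90 and 1.55 CPM in UACC62P and at 2.11 and 2.38 CPM in UACC62R. Both resistant libraries were higher, but the difference missed the threshold (0.38 ± 0.25, 95% interval -0.15 to 0.91, adjusted p = 0.218).

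Among the conjugate exporters, ABCC2 and ABCC3 were the higher ones in UACC62R. ABCC2 stood at 4.64 and 5.51 CPM in untreated UACC62P and at 43.8 and 44.1 CPM in untreated UACC62R, 8.66-fold higher (log2 3.12 ± 0.15, adjusted p = 2.77e-10). The highest of the 7 UACC62P libraries reached 7.02 CPM and the lowest of the 8 UACC62R libraries 43.8 CPM. ABCC3 gave 9 reads in the 2 untreated UACC62P libraries (0.104 and 0.216 CPM) and 484 reads in those of UACC62R (8.51 and 7.07 CPM). From these reads its ratio was 48.9, with an exact 95% interval of 25.5 to 108 that covers counting error only (log2 5.58 ± 0.31, adjusted p = 1.57e-09). Without UACC62P 0 h replicate 2 the log2 value was 6.17. ABCC1 stood at 118 and 99.7 CPM against 148 and 139 CPM and was called at 1.32-fold higher (0.40 ± 0.13, adjusted p = 0.0159). This call was lost without UACC62P 0 h replicate 2 (adjusted p = 0.151), without UACC62R 0 h replicate 1 (0.0887) and with all 16 libraries (0.0695), and over all times the lines overlapped.

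ABCC4 and ABCC5, the exporters of cyclic nucleotides, went the other way. ABCC4 stood at 40.0 and 37.8 CPM in untreated UACC62P and at 19.0 and 21.4 CPM in untreated UACC62R, 1.93-fold lower in the latter (log2 -0.95 ± 0.10, adjusted p = 1.26e-06). Over all times its libraries lay between 36.0 and 50.1 CPM in UACC62P (median 39.0) and between 19.0 and 29.9 CPM in UACC62R (median 22.5). ABCC5 stood at 135 and 128 CPM against 93.2 and 91.3 CPM, 1.43-fold lower (-0.51 ± 0.07, adjusted p = 2.32e-05). The 2 resistant libraries of each gene were below both parental ones.

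ABCB5 was read mainly in the parental line. Its values were 12.95 and 11.35 CPM in untreated UACC62P, from 689 reads, and 0.33 and 0 CPM in untreated UACC62R, from 10 reads that all came from replicate 1. The 0 reads of UACC62R replicate 2 allow a level of up to 0.0939 CPM (3 reads). The ratio of reads was 75.8, with an exact 95% interval of 40.9 to 159 that covers counting error only and not the gap between the UACC62R replicates (log2 -6.20 ± 0.52, adjusted p = 1.51e-07). Without UACC62R 0 h replicate 2 the log2 value was -5.18 ± 0.45, and without replicate 1 the untreated UACC62R side has 0 reads, so that the call remains (adjusted p = 1.44e-07) but the fold has no fixed size. No UACC62R library exceeded 0.385 CPM at any time. The sum of the melanocyte lineage markers given above was lower in UACC62R along with ABCB5, while TYRP1 among them overlapped between the lines. A part of these markers in the ABCB5 difference was not tested.

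ABCA1 was low in both lines and higher in UACC62R. It stood at 0.277 and 0.252 CPM in untreated UACC62P (15 reads) and at 1.12 and 1.06 CPM in untreated UACC62R (68 reads). The ratio of reads was 4.12, with an exact 95% interval, for counting error only, of 2.33 to 7.77 (log2 2.03 ± 0.40, adjusted p = 0.000581). The ranges of the lines did not overlap over all times, at 0.106 to 0.355 CPM and 0.903 to 1.32 CPM.

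**Figure D2:**
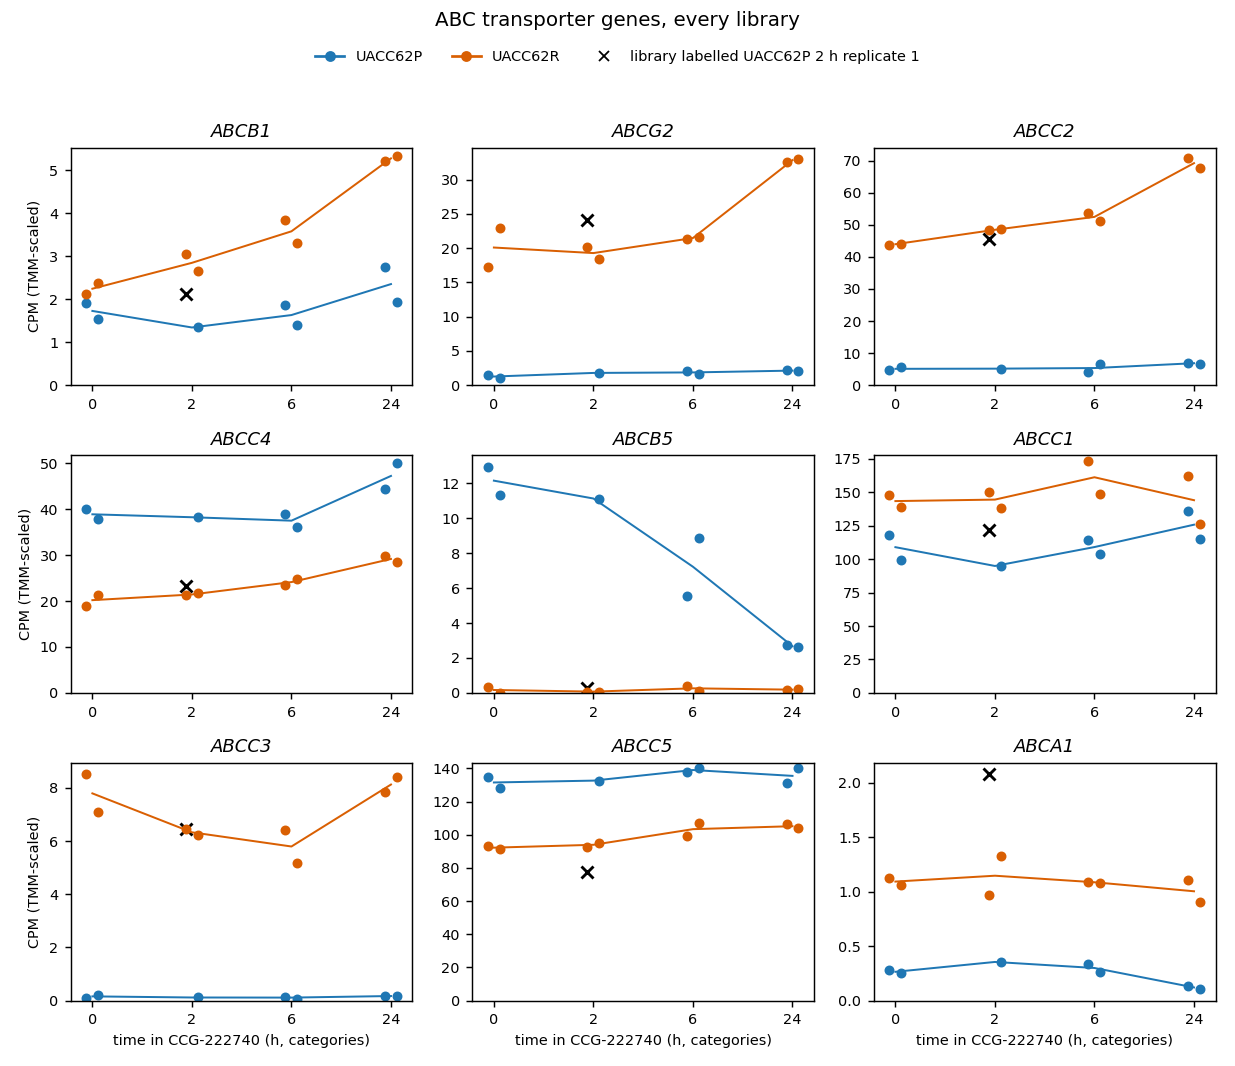
CPM (TMM-scaled) of each transporter gene in every library against time in CCG-222740, with the times drawn as evenly spaced categories; points are libraries, lines join group means, blue is UACC62P and orange UACC62R, and the cross is the library labelled UACC62P 2 h replicate 1, which entered no mean. Pooled over all times, the ranges of the lines do not overlap for 7 of the 9 genes, the exceptions being ABCB1 and ABCC1. The same count over all genes was not made. Within each single time the ABCB1 libraries of the lines are apart as well. Within UACC62R, ABCB1, ABCG2, ABCC2 and ABCC4 are highest at 24 h.

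The next comparison set the CCG-222740 libraries of the resistant line against its untreated ones, which alone are stated to be in vemurafenib. In UACC62R, 4 transporters rose by 24 h: ABCB1, ABCG2, ABCC2 and ABCC4. No transporter fell. The 4 higher calls among 9 genes stand beside 6.48% of all genes called higher and 14.7% called either way. The median log2 fold change was 0.19 over the 9 transporters and 0.0055 over all genes.

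ABCB1 had the largest change of the 4. In UACC62R it read 2.11 and 2.38 CPM at 0 h, 3.05 and 2.65 CPM at 2 h, 3.85 and 3.32 CPM at 6 h, and 5.23 and 5.33 CPM at 24 h. Each later pair lay above both libraries of the earlier time. The change at 24 h was 2.35-fold (log2 1.23 ± 0.23, 95% interval 0.74 to 1.72, adjusted p = 0.00244). At 6 h it was 0.67 ± 0.23 and missed the threshold (adjusted p = 0.341), and 24 h against 6 h gave 0.56 ± 0.22 (adjusted p = 0.118). The gene rests on 140 reads at 0 h and 344 at 24 h.

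ABCG2 rose late. It read 17.3 and 22.9 CPM at 0 h, 20.1 and 18.4 CPM at 2 h, 21.3 and 21.7 CPM at 6 h, and 32.6 and 33.1 CPM at 24 h. The first 6 libraries overlapped among the times, and both 24 h libraries lay above all of them. The 24 h change was 1.63-fold (0.71 ± 0.14, adjusted p = 0.00371). Against 6 h it was 0.61 ± 0.14 (adjusted p = 0.011).

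ABCC2 and ABCC4 rose less. ABCC2 read 43.8 and 44.1 CPM at 0 h, 48.4 and 48.6 CPM at 2 h, 53.7 and 51.3 CPM at 6 h, and 70.8 and 67.7 CPM at 24 h. Its change at 24 h was 1.57-fold (0.66 ± 0.12, adjusted p = 0.00258), with 0.40 ± 0.12 against 6 h (adjusted p = 0.0454). ABCC4 read 19.0 and 21.4 CPM at 0 h, 21.2 and 21.6 CPM at 2 h, 23.4 and 24.8 CPM at 6 h, and 29.9 and 28.4 CPM at 24 h. It changed 1.44-fold (0.53 ± 0.10, adjusted p = 0.00229). For both genes the 24 h libraries lay above all earlier ones.

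Between 6 and 24 h, with treated libraries on both sides, 2 of the 9 were called higher in UACC62R (ABCG2 and ABCC2), where 12.6% of all genes were called either way and 5.18% higher. The ABCC2 call was lost whichever of the 4 libraries was left out (adjusted p of 0.116 and 0.224 without 6 h replicates 1 and 2, 0.21 and 0.086 without 24 h replicates 1 and 2). The ABCG2 call was lost without either 6 h library (0.053 and 0.0709). With the replicate number as a block, ABCC4 also passed (0.27 ± 0.10, adjusted p = 0.0814 without the block and 0.0345 with it).

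The 5 other transporters did not pass at 24 h in UACC62R. ABCC5, at 93.2 and 91.3 CPM before and 107 and 104 CPM at 24 h, gave 0.19 ± 0.07 (adjusted p = 0.0892), and 0.0322 with the replicate block. ABCC1 read 148 and 139 CPM at 0 h and 162 and 126 CPM at 24 h, so its 24 h libraries lay on either side of the untreated ones (0.01 ± 0.13, 95% interval -0.26 to 0.28). ABCC3 gave 0.06 ± 0.19 and ABCA1 -0.12 ± 0.33. ABCB5 had 10 reads at 0 h and 12 at 24 h, too few to show a change. The 4 calls against 0 h were all lost when the library labelled UACC62P 2 h replicate 1 was kept (adjusted p from 0.0534 for ABCB1 to 0.773 for ABCG2) while the fold changes stayed as large, and a fit of the 8 UACC62R libraries alone called these 4 again (adjusted p from 0.00094 for ABCC2 to 0.00882 for ABCC4). With all 16 libraries 171 of 19352 genes were called higher and 173 lower in this comparison. The block with all 16 libraries called 1 transporter, ABCB1, beside 290 genes higher and 378 lower.

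At 2 and 6 h in UACC62R edgeR called 0 of the 9, where 0.074% and 0.666% of all genes were called. At an unadjusted p under 0.05 there were 0 and 4, beside 854 and 1844 of the 20280 genes tested. DESeq2 called 0 at both times.

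In the parental line the transporter that moved by 24 h was ABCB5, downwards. It was the 1 member called of 9, where 3.85% of all genes were called either way and 1.65% lower. ABCB5 read 12.95 and 11.35 CPM at 0 h, 11.1 CPM in the single library used at 2 h, 5.57 and 8.87 CPM at 6 h, and 2.73 and 2.62 CPM at 24 h. Both 6 h libraries lay below the untreated ones and both 24 h libraries lay below those. The 24 h fall was 4.54-fold (log2 -2.18 ± 0.36, 95% interval -2.95 to -1.41, adjusted p = 0.00347). By reads alone it was 689 against 154, a ratio of 4.55 with an exact 95% interval of 3.82 to 5.46. This interval covers counting error only and not the spread between libraries.

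At 6 h ABCB5 gave -0.76 ± 0.33 (adjusted p = 0.326), and between 6 and 24 h -1.43 ± 0.36 (adjusted p = 0.100). The latter passed with the replicate block (0.0113), in DESeq2 (0.00195), without a filter on low counts (2.23e-06) and in UACC62P libraries alone (0.0116). The 24 h call against 0 h was lost without UACC62P 24 h replicate 1 (0.062) or replicate 2 (0.0513), with all 16 libraries (0.772), and with the block in all 16 libraries (0.653). With the 7 UACC62P libraries alone it stood at 0.000361.

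The genes that rose in UACC62R had positive values in UACC62P that did not pass. ABCG2 read 1.45 and 1.04 CPM at 0 h and 2.18 and 2.05 CPM at 24 h, with a log2 fold change of 0.75 ± 0.23 (adjusted p = 0.0872, and 0.0476 in DESeq2). ABCC4 read 40.0 and 37.8 CPM at 0 h and 44.3 and 50.1 CPM at 24 h, giving 0.28 ± 0.09 (adjusted p = 0.122, and 0.0403 with the replicate block). ABCC2 read 4.64 and 5.51 CPM, then 7.02 and 6.64 CPM, and gave 0.43 ± 0.16 (adjusted p = 0.157). ABCB1 read 1.90 and 1.55 CPM, then 2.76 and 1.94 CPM, for 0.45 ± 0.25 (adjusted p = 0.374). For all 4 genes both 24 h libraries lay above both untreated ones.

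The remaining transporters of UACC62P also missed the threshold. ABCA1 went from 15 reads at 0 h to 7 at 24 h, a ratio of 2.18 in favour of 0 h. The exact 95% interval of this ratio, 0.837 to 6.32 for counting error only, includes no change. ABCC1 (0.21 ± 0.13) and ABCC5 (0.04 ± 0.07) gave adjusted p-values of 0.426 and 0.818. ABCC3 stayed at 0.0739 to 0.216 CPM in the 7 libraries.

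In UACC62P at 2 and 6 h, and between 6 and 24 h, edgeR called 0 of the 9, where 0.0444%, 1.52% and 0.735% of all genes were called. The members with an unadjusted p under 0.05 numbered 0, 2 and 4, beside 877, 2784 and 2554 of the 20280 genes tested. DESeq2 called 0, 0 and 1, with 195 of all genes higher and 228 lower between 6 and 24 h. In that comparison the replicate block called ABCC4 (0.33 ± 0.09, adjusted p = 0.0319) beside ABCB5, with 475 of all genes higher and 550 lower.

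**Figure D3:**
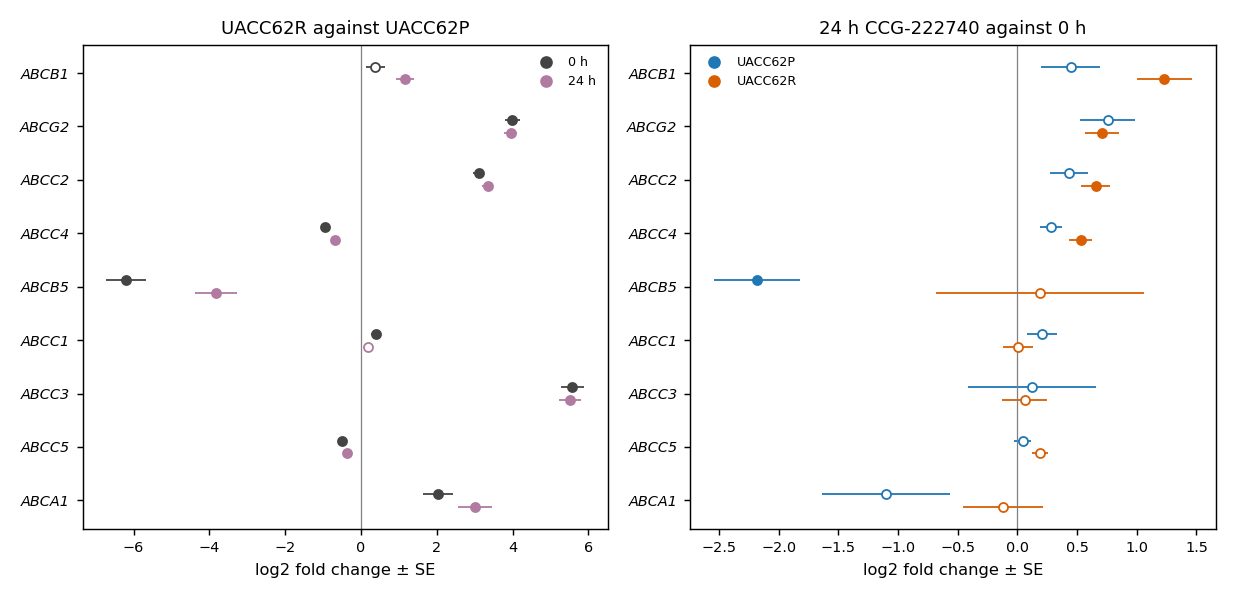
Log2 fold changes ± SE of the 9 transporter genes, for UACC62R against UACC62P on the left (black, 0 h; purple, 24 h) and for 24 h against 0 h on the right (blue, UACC62P; orange, UACC62R), with filled points for an adjusted p under 0.05 and open points otherwise. On the left 8 genes are filled at each time; on the right 4 are filled in UACC62R, all to the right of 0, and ABCB5 is filled in UACC62P, to the left.

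Whether the lines answered differently was tested as the difference of their 24 h responses. None of the 9 differed by edgeR, where 0.562% of all genes did. The members with an unadjusted p under 0.05 numbered 2, ABCB1 and ABCB5, beside 2196 of the 20280 genes tested. DESeq2 called 0 of the 9. The ABCB1 response was larger in UACC62R by 0.79 ± 0.34 (95% interval 0.06 to 1.51, adjusted p = 0.412). For ABCG2 the difference was -0.05 ± 0.26, with an interval of -0.60 to 0.51. ABCC2 gave 0.23 ± 0.20 and ABCC4 0.25 ± 0.14 (adjusted p = 0.755 and 0.538). The ABCB5 difference was 2.37 ± 0.97 (adjusted p = 0.381), and it passed without the filter on low counts (0.0312). At 6 h edgeR and DESeq2 both called 0 (0.00493% of all genes by edgeR), and 2 had an unadjusted p under 0.05 (951 of the 20280 genes).

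After 24 h in CCG-222740 the lines differed in 8 of the 9 transporters, where 55.2% of all genes were called. ABCB1, which had not passed in untreated cells, stood at 2.76 and 1.94 CPM in UACC62P and at 5.23 and 5.33 CPM in UACC62R, 2.24-fold higher (1.16 ± 0.23, adjusted p = 0.000563). ABCC1 did not pass (0.20 ± 0.13, adjusted p = 0.205), but did with the replicate block (0.0183) and without UACC62R 24 h replicate 2 (0.0269). The comparisons at 0 and 24 h share no library. ABCC2 (log2 3.34 ± 0.14), ABCG2 (3.95 ± 0.17) and ABCC3 (5.52 ± 0.30) were higher in UACC62R, beside log2 values of 3.12, 4.0 and 5.58 at 0 h. ABCA1, with 65 reads in UACC62R and 7 in UACC62P, gave a ratio of 8.22 (exact 95% interval 3.77 to 21.2). ABCB5 was still lower in UACC62R, by a ratio of 14.5 (8.07 to 28.7), from 154 and 12 reads. Both intervals cover counting error only. ABCC4 was 1.62-fold lower (-0.70 ± 0.09) and ABCC5 1.29-fold lower (-0.37 ± 0.07). The ABCC5 call was lost with all 16 libraries (adjusted p = 0.128), and that of ABCB5 with the block in all 16 libraries (0.0508).

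In the order per kilobase at 24 h, ABCC2 in UACC62R (8.84 ± 0.28 CPM per kb) lay close to ABCC5 (9.19 ± 0.17), though their libraries did not overlap. ABCB1 (0.909 ± 0.013) then lay above ABCC3 (0.845 ± 0.044). In UACC62P, ABCB5 (0.289 ± 0.009 CPM per kb) had moved below ABCC2, ABCG2 and ABCB1.

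Other ABC transporters also rose in the resistant line at 24 h. Of the 27 other plasma and organelle membrane transporters listed, 21 were tested. In UACC62R at 24 h, 5 rose and 0 fell, beside 6.48% of all genes called higher, with a median log2 fold change of 0.62 (0.0055 over all genes). ABCA5, a lysosomal lipid transporter, rose by 1.08 ± 0.18 from 3.35 ± 0.71 to 7.09 ± 0.56 CPM. ABCA8, which takes part in cholesterol export, rose by 0.95 ± 0.17 from 8.09 ± 0.25 to 15.6 ± 2.41 CPM. ABCA7, a phospholipid transporter related to ABCA1, rose by 0.62 ± 0.14, and ABCD4, which serves cobalamin export from lysosomes, by 0.49 ± 0.11. ABCA6 (2.33 ± 0.65, from 9 reads to 49) also passed and is named after its values were seen. With all 16 libraries 0 of 20 passed, in a fit that called 171 of 19352 genes higher and 173 lower.

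In UACC62P at 24 h the same list had 1 rise, ABCA8 (0.95 ± 0.19, from 3.56 ± 0.15 to 6.87 ± 1.62 CPM), and 0 falls, with a median of 0.30. Of the 20280 genes, 445 were called higher there and 335 lower. In the test of the difference between the responses 0 of the 21 were called by edgeR, DESeq2 or the replicate block. At an unadjusted p under 0.05 there were 4, beside 2196 of the 20280 genes. Between the untreated lines 7 were higher in UACC62R and 8 lower, beside 27.8% and 26.1% of all genes. The higher ones included ABCA3 (2.76 ± 0.60), ABCA8 (1.18 ± 0.19), ABCA7 (1.11 ± 0.15) and ABCA2 (0.97 ± 0.16). Among the lower ones were ABCA5 (-1.47 ± 0.18), ABCA13 (-1.16 ± 0.26) and ABCD4 (-0.97 ± 0.11). ABCA5 and ABCD4, lower in UACC62R, and ABCA7 and ABCA8, higher there, thus all rose in that line at 24 h.

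**Figure D4:**
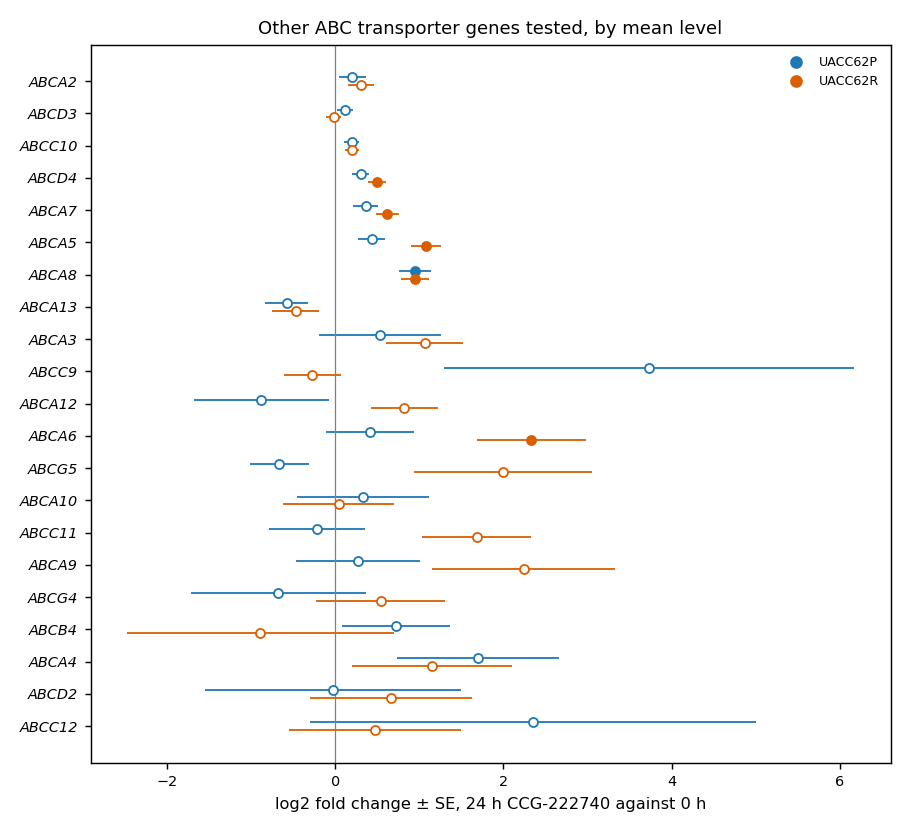
Log2 fold changes ± SE at 24 h against 0 h of 21 other ABC transporter genes tested, in UACC62P (blue) and UACC62R (orange), ordered by mean level from the top, with filled points for an adjusted p under 0.05. The 5 filled orange points and the 1 filled blue point all lie above 0, and the genes in the lower part of the plot have few reads and wide errors.

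Of the 4 ABC proteins that are not transporters, members of the E and F subfamilies known for roles in translation, 3 fell in UACC62R at 24 h: ABCE1 by 0.49 ± 0.10, ABCF2 by 0.43 ± 0.08 and ABCF1 by 0.24 ± 0.06 on the log2 scale. Of the 20280 genes tested, 1669 were called lower there. ABCF3 did not pass at 24 h (0.08 ± 0.09) or between the untreated lines (-0.13 ± 0.09). With all 16 libraries 0 of the 4 passed in UACC62R at 24 h, beside 171 of 19352 genes higher and 173 lower. The same 3 were lower in untreated UACC62R than in UACC62P (26.1% of all genes were), by 0.38 ± 0.10, 0.45 ± 0.08 and 0.38 ± 0.06. With all 16 libraries 1 of them passed there, beside 3680 of 19352 genes called lower. In UACC62P at 24 h 0 of the 4 passed in edgeR, while 2 had an unadjusted p under 0.05 (3671 of the 20280 genes did). In DESeq2 and with the replicate block 2 passed. Over all genes DESeq2 called 634 higher and 655 lower, and the block 1224 each way. Of the 7 mitochondrial, lysosomal and antigen-processing ABC proteins, TAP1, the peptide transporter of antigen presentation, rose at 24 h in both lines (0.41 ± 0.11 in UACC62P and 0.40 ± 0.10 in UACC62R). With all 16 libraries 0 of the 7 passed at 24 h in either line. Of 19352 genes that fit called 20 higher and 9 lower in UACC62P, and 171 and 173 in UACC62R. TAP1 (0.36 ± 0.11) and ABCB9 (0.24 ± 0.08) were higher in untreated UACC62R, and ABCB10 was lower (-0.61 ± 0.09).

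LXR receptors and targets differed between the lines mostly in the direction opposite to ABCA1. Of 12 tested, 3 were higher and 8 lower in untreated UACC62R (27.8% and 26.1% of all genes were), with a median of -1.01 (0.0216 over all genes). The higher ones were 3 of the receptors: RXRA (0.37 ± 0.11), RXRB (0.37 ± 0.08) and NR1H2 (0.33 ± 0.08). The LXR receptor NR1H3 was the 1 gene that did not pass (-0.39 ± 0.19, adjusted p = 0.106). The lower ones included the desaturase SCD (-2.22 ± 0.14), the phosphodiesterase SMPDL3A (-2.16 ± 0.10), the lipogenic factor SREBF1 (-1.44 ± 0.18) and the ubiquitin ligase MYLIP (-1.31 ± 0.15). ABCG1, the other cholesterol exporter driven by LXR, had 0 reads in untreated UACC62P and 3 in untreated UACC62R. At 24 h in UACC62R, SREBF1 (0.87 ± 0.18), SMPDL3A (0.82 ± 0.10) and RXRB (0.26 ± 0.08) rose and 0 fell, beside 6.48% of all genes called higher. ABCA1 did not pass. With the replicate block 6 rose in UACC62R, in a fit that called 2230 of the 20280 genes higher. In UACC62P, SMPDL3A rose (0.41 ± 0.09).

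Of the genes of sterol uptake and esterification, 2 rose in both lines at 24 h. OSBP, an oxysterol-binding protein, and NPC1, which moves cholesterol out of lysosomes, rose in UACC62R (0.59 ± 0.07 and 0.38 ± 0.09) and in UACC62P (0.30 ± 0.07 and 0.63 ± 0.09). LIPA, the lysosomal acid lipase, rose in UACC62R (0.55 ± 0.08), and SCARB1, an HDL receptor, fell in UACC62P (-0.27 ± 0.07). Of the 8 genes, 3 rose in UACC62R and 0 fell, beside 1315 and 1669 of the 20280 genes tested. In UACC62P 2 rose and 1 fell, beside 445 and 335 of all genes. Under the replicate block the counts in UACC62R were 3 higher and 2 lower, beside 2230 and 2668 of all genes. Between the untreated lines, where 53.9% of all genes were called, NCEH1 (2.17 ± 0.25) and NPC1 (0.74 ± 0.09) were higher in UACC62R. There SCARB1 (-2.11 ± 0.07), STARD4 (-0.82 ± 0.16) and LIPA (-0.29 ± 0.08) were lower.

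Receptors and other factors listed under the sensing of foreign compounds were tested because several are known regulators of these exporters. Of 8 tested, AHR (0.80 ± 0.09), the aryl hydrocarbon receptor, PPARD (0.71 ± 0.08) and PPARG (4.03 ± 0.79, at a low level and named after its value was seen) were higher in untreated UACC62R, and NFE2L2 (-0.52 ± 0.08), the antioxidant factor NRF2, was lower. The comparison of the untreated lines called 53.9% of all genes. At 24 h PPARA rose in UACC62R (0.59 ± 0.19, adjusted p = 0.0482), beside 6.48% of all genes called higher. With the replicate block 2 genes of the list rose, beside 2230 of the 20280 genes. In UACC62P 0 of the 8 passed in edgeR or DESeq2, and 0 had an unadjusted p under 0.05 (3671 of all genes did). NR1I2, the pregnane X receptor that drives ABCB1 in liver, had 0 reads in UACC62P at 0 and 24 h and 2 reads in untreated UACC62R.

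Glutathione conjugates are substrates of ABCC1 and ABCC2, and 5 of 18 genes of glutathione synthesis and conjugation rose in UACC62R at 24 h while 0 fell, beside 6.48% of all genes called higher. They included the membrane transferases MGST2 (0.68 ± 0.12) and MGST1 (0.59 ± 0.07, from 309 ± 23.0 to 466 ± 9.48 CPM), GSTA4 (0.66 ± 0.18) and GSTM2 (0.59 ± 0.16). With the replicate block 10 rose, in a fit that called 2230 of the 20280 genes higher. In UACC62P, MGST1 alone rose (0.37 ± 0.08), beside 445 of all genes. With the block 3 genes of the list rose, beside 1224 of all genes. Between the untreated lines, where 53.9% of all genes were called, 8 were higher in UACC62R and 5 lower. The higher ones included MGST1 (3.03 ± 0.08) and GCLM (1.33 ± 0.18), a subunit of the enzyme that makes glutathione's precursor, and the lower ones GSTA4 (-1.22 ± 0.18) and GSTM4 (-0.94 ± 0.16). GSTM genes are similar in sequence, so their counts may be uncertain, which was not measured.

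Uptake carriers of organic anions, cations and nucleosides bring substrates in where the ABC proteins take them out. All 13 tested differed between the untreated lines, 6 higher in UACC62R and 7 lower, in a comparison that called 53.9% of all genes. SLCO3A1 (3.11 ± 0.14) and SLC22A4 (2.36 ± 0.22) were higher, and SLC22A18 (-2.22 ± 0.19), SLC29A2 (-2.21 ± 0.22) and SLCO5A1 (-1.71 ± 0.15) were lower. At 24 h in UACC62R, SLC22A18 (0.99 ± 0.19), SLC22A4 (0.95 ± 0.18) and SLCO4A1 (0.41 ± 0.13) rose, and SLCO5A1 (-0.59 ± 0.17) and SLC29A1 (-0.52 ± 0.08), a nucleoside carrier, fell. Of the 20280 genes tested, 1315 were called higher there and 1669 lower. In UACC62P, SLC22A4 (1.06 ± 0.24) and the carnitine carrier SLC22A5 (0.51 ± 0.11) rose, beside 445 of all genes. With the block 4 genes of the list rose, beside 1224 of all genes. With all 16 libraries the lists of LXR, glutathione and uptake genes had 0 calls at 24 h in either line. The sterol list had 2 higher in UACC62R, where 171 of 19352 genes were called higher and 173 lower. In UACC62P 20 genes were called higher and 9 lower with all 16 libraries. The common dispersion of that fit was 0.0622, against 0.00985 without the doubted library. In the test of the difference between the 24 h responses, edgeR called 0 genes of any of these lists. Between 0 and 3 genes of each had an unadjusted p under 0.05 (2196 of the 20280 genes did). DESeq2 called 1 LXR gene and 1 of the ABC proteins that are not transporters in that test. With the replicate block 1 gene each of these 2 lists, of the glutathione list and of the uptake carriers passed. Over all genes DESeq2 called 167 higher and 232 lower in that test, and the block 358 and 464.

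Among genes at or above a mean log2 CPM of 2, those whose profile over the 15 libraries was most like that of a called transporter were found by Pearson's r after subtracting each line's mean. These r describe libraries that share depth and replicate structure, and they carry no p. ABCB1 was followed most closely by EDA2R (r = 0.951), a receptor of the TNF family, CD44 (0.93), the hyaluronan receptor, and ASPH (0.915). For ABCG2 the nearest were TWSG1 (0.937), TMEM106B (0.931) and LEPROT (0.925). ABCC4 was nearest to OCIAD1 (0.943), to LIPA (0.941), the lipase named above, and to ALG5 (0.939). ABCC2 was nearest to UBE2J1 (0.915), COG3 (0.912) and FAM13A (0.906). For ABCB5 they were COMTD1 (0.866), the potassium channel gene KCNN2 (0.832) and NFKBIA (0.82), and the profile of ABCB5 in UACC62R rests on at most 12 reads a library.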

How the data were processed

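Per the labels' protocols, libraries came from a stranded poly(A) RNA kit and were read as single 50 bp reads. HTSeq 0.6.1, HISAT2 2.1.0, Trimmomatic 0.33, FastQC 0.11.5 and bcl2fastq 2.19.0, with build hg19, are named per the submitters' processing notes. Use of strand in counting was not given in the sources used here. The authors deposited raw read counts per Ensembl gene for each library, with no normalization, so reads aligned to more than 1 place (18.62 to 22.01% of all reads) are not in them. The 5 summary lines at the end of each table were not used as genes: 6.12 to 17.85% of reads were not aligned, and 3.31 to 4.66% of uniquely aligned reads lay in no gene. Symbols were given to 52181 IDs, and exon lengths came from GENCODE on GRCh38, in which no transporter shared exon bases with an overlapping gene.

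Counts of 15 libraries were scaled by TMM, filtered by filterByExpr on the groups and fitted with a coefficient per group by edgeR 4.0.16 (limma 3.58.1, R 4.3.3), giving 20280 genes and 7 residual degrees of freedom. Standard errors are |log2 fold change| over the square root of its F. CPM of the library labelled UACC62P 2 h replicate 1 were scaled within 16 libraries. Alternatives were all 16 libraries, the replicate number as a block, DESeq2 1.42.0, DESeq2's size factors, library size alone, no filter and leaving out each library; a fit of each line alone was added after seeing the data. Fits were tested on simulated data. Deviations of same-numbered libraries correlated in all 21 pairs of groups (0.17 to 0.72 over 8273 genes). In the block the numbers were therefore taken to pair libraries. This pairing comes from the data, as no label states it. The main fit, which gives the calls unless stated, has no term for it. In UACC62R at 24 h against 0 h the main fit called 1315 genes higher and 1669 lower, and the block 2230 and 2668.

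Genes of related lists that are not reported here were left out of the lists. The transporters and the other gene lists were chosen with earlier results of these data known. From each list up to 4 called genes each way with the largest change and a mean log2 CPM of at least 0 were named, and 3 nearest profiles for each transporter called over time.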

Additional observations from a re-analysis of the deposited data

Results flagged for a closer look

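The library labelled UACC62P 2 h replicate 1 entered none of the tests on 15 libraries, and 4 transporters stood in it above both untreated UACC62P libraries, beyond counting error. ABCC2 stood at 45.7 CPM, where the untreated UACC62P libraries read 4.64 and 5.51 CPM. ABCC3 stood at 6.45 CPM (0.104 and 0.216 CPM), ABCG2 at 24.0 CPM (1.45 and 1.04 CPM) and ABCA1 at 2.08 CPM (0.277 and 0.252 CPM). For this count and the next ones no share over all genes was taken, and 53.9% of all genes were called between the untreated lines. In this library 7 of the 9 transporters lay outside the range of the other UACC62P libraries and 6 of the 9 inside that of UACC62R. ABCC2, ABCC3 and ABCG2 were among the 6. ABCA1 was not: its exact 95% interval, 1.62 to 2.63 CPM for counting error only, lay above the highest UACC62R library (1.32 CPM). ABCC5, at 77.9 CPM (74.9 to 80.9), lay below the lowest UACC62R library (91.3 CPM), and ABCC1, at 122 CPM, below the lowest one too (126 CPM).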

How the results depend on the processing

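Over the planned and added fits, log2 fold changes of single transporters stayed on their side of the threshold in 788 cases, passed newly in 15 and lost their call in 17; with 1 library left out these numbers were 475, 1 and 10, and no called value changed sign. Keeping all 16 libraries, in which the doubted library widens the spread, took the number of transporters called from 1 to 0 in UACC62P at 24 h against 0 h, from 4 to 0 in UACC62R at 24 h against 0 h, and from 2 to 0 in UACC62R at 24 h against 6 h. Calls over all genes fell as well. Of 19352 genes that fit called 20 higher and 9 lower in UACC62P at 24 h (445 and 335 without the library). In UACC62R it called 171 and 173 against 0 h (1315 and 1669), and 62 and 96 against 6 h (1051 and 1499). With the replicate block the 15 libraries gave 2 in UACC62P at 24 h against 0 h and 2 at 24 h against 6 h (0 without it), and all 16 libraries gave 0 in UACC62P at 24 h, 1 in UACC62R at 24 h against 0 h and 0 against 6 h. Over all genes the block on 15 libraries called 1224 each way in UACC62P at 24 h, and 475 higher and 550 lower against 6 h. On all 16 libraries the block called 56 of 19352 genes higher and 19 lower in UACC62P at 24 h. In UACC62R that fit called 290 and 378 against 0 h, and 161 and 285 against 6 h. The block moved no other number of transporters called by over 1.5 times. DESeq2 called 2 in UACC62P at 24 h and 1 against 6 h, with 634 of all genes higher and 655 lower, and 195 and 228. Without a filter on low counts 1 was called in UACC62P at 6 h, 2 at 24 h and 1 at 24 h against 6 h, and 1 in the difference of responses at 24 h. Of its 35573 genes that fit called 468, 781, 293 and 264 higher in these comparisons, and 421, 737, 429 and 310 lower. UACC62P libraries alone gave 1 at 24 h against 6 h, with 135 of 17790 genes higher and 222 lower. With 1 library left out, 0 to 1 were called in UACC62P at 24 h against 0 h and 0 to 1 in UACC62R at 24 h against 6 h. The cause of these changes other than the wider spread was not tested. Leaving out UACC62P 2 h replicate 2 leaves no library at that time and gives no value.

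With libraries scaled by their size alone, the median gene differed between the untreated lines by 0.1019 (0.0216 with TMM), the calls went from 5642 higher and 5297 lower to 6230 and 4653, and ABCC1 passed between the lines at 24 h (adjusted p = 0.045). Depth limits ABCA1 in UACC62P (7 to 18 reads a group), ABCC3 in UACC62P and ABCB5 in UACC62R, and pairs of libraries limit all tests.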

Other observations

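Further transport genes stood far apart between the lines at low levels. ABCC9, ABCG5 and SLCO2A1 fall outside the rule for named genes and were picked after their values were seen. ABCC9, a subunit of ATP-sensitive potassium channels, had 0 reads in untreated UACC62P and 3 at 24 h, against 397 and 344 reads in UACC62R (6.33 ± 2.61 and 5.24 ± 1.12 CPM, SD, n = 2). ABCG5, which with ABCG8 exports plant sterols, went the other way, with 134 and 86 reads in UACC62P at 0 and 24 h (2.37 ± 0.57 and 1.49 ± 0.09 CPM) and 1 and 5 reads in UACC62R. The prostaglandin carrier SLCO2A1 had 0 and 2 reads in UACC62P and 47 and 40 in UACC62R. ABCA3, a phospholipid transporter, read 2.29 ± 0.81 CPM in untreated UACC62R and 4.8 ± 1.48 CPM at 24 h, against 0.331 ± 0.315 and 0.485 ± 0.086 CPM in UACC62P.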
